A study of Saccharomyces cerevisiae with 5 samples.

Results

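FBP1, PCK1, ICL1, MLS1, MDH2, IDP2 and SFC1 encode enzymes of gluconeogenesis and of the glyoxylate cycle in the budding yeast Saccharomyces cerevisiae, together with the carrier that links that cycle to the mitochondrion. They were taken by name from the gene column of the deposited table of transcription start clusters, which gave them 62 of its 27176 distinct clusters and lists 5009 genes in all. Each member passed the filter of 10 CPM, reads scaled to the library total, in at least 1 library, as did 4904 of the 5009 genes. Transcripts were read by cap analysis of gene expression (CAGE), which sequences the capped 5′ end of each RNA, so that a gene's level needs no correction for its length.

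The study had 5 groups of 1 library each. Strain BY_DEH+ was grown in DEH for 3 days, from an optical density of 0.2 to 0.63, and in glucose overnight, from 0.05 to 0.91. Strain BY_DEH++ was grown in DEH for 2 days (0.05 to 0.55), in mannitol for 1 day (0.02 to 0.79) and in glucose overnight (0.05 to 0.95). DEH, in full 4-deoxy-L-erythro-5-hexoseulose uronate, is the monomer that the breakdown of alginate yields. Mannitol is a sugar alcohol, and both it and alginate occur in brown algae. All cultures held 1% (w/v) of the carbon source in 10 mL at 30 °C, had the same other medium components, and came from precultures on YPGA plates. The labels give the strains by name, without a genotype. Because each medium went with its own culture time and final density, an effect of the medium cannot be told apart from one of culture stage. The title of the mannitol library ends in New, where the other titles end in letters such as AGT. Whether that library was made apart from the others is not given, so this too cannot be told apart from an effect of mannitol. The libraries held about 9430000 to 19900000 reads, 1 read was worth 0.0503 to 0.106 CPM, and the lowest value above 0 in a library stood for 5 to 10 reads. With 1 library in each group no difference has a replicate check; intervals given below are 95% intervals for counting error only, and a gene was called higher or lower where the ratio of (CPM + 1) passed 4-fold.

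A yeast cell that grows on a carbon source other than a sugar has to build its hexoses from smaller molecules. Gluconeogenesis does this by running most of glycolysis backwards; its irreversible steps need enzymes of their own, phosphoenolpyruvate carboxykinase (Pck1) at the bottom and fructose bisphosphatase (Fbp1) at the top. The glyoxylate cycle feeds it from acetyl-CoA while sparing the carbon that the citric acid cycle gives off as carbon dioxide. Glucose represses these genes through factors such as Mig1, and the activators Cat8 and Sip4 bind the carbon source response element (CSRE) upstream of many of them.

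The stretches that hold CSRE-like letters upstream of the main start cluster of each gene are printed here, since the search over these promoters is what the members share beside their levels. The main start cluster is the cluster with the largest CPM summed over the libraries. Sequences are from the R64 genome in RefSeq, 5′ to 3′ on the strand of the gene. Capitals mark matches, on either strand, to the core CCNNNNNNCCG; a match on the opposite strand reads CGGNNNNNNGG on the printed one, and overlapping matches run together.
FBP1, chrXII:875209-875301, minus strand: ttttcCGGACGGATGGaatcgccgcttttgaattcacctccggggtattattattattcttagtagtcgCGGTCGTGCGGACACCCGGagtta
PCK1, chrXI:630585-630686, plus strand: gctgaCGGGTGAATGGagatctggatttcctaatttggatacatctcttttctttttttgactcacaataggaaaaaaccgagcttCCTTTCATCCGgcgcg
ICL1, chrV:287297-287317, minus strand: ggtttCCATTCATCCGagcga
MLS1, chrXIV:405822-405932, plus strand: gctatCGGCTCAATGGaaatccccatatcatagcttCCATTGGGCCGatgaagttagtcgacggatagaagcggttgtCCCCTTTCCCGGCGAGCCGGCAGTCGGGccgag
MDH2, chrXV:83282-83376, minus strand: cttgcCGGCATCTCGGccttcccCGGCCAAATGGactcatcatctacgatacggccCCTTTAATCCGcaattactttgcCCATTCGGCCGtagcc
IDP2, chrXII:504283-504303, plus strand: cattgCCGGTGGTCCGaaaat
SFC1, chrX:609089-609297, plus strand: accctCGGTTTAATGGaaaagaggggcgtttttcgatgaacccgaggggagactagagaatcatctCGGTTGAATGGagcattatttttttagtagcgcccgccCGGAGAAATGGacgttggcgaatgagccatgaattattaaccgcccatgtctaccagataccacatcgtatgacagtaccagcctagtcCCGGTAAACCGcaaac

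The core CCNNNNNNCCG occurred within 500 bases upstream of the main start cluster of 7 of the 7 genes, against 24.4% of all 5009 genes. MLS1 held 6 matches, MDH2 and SFC1 4 each, FBP1 3, PCK1 2, and ICL1 and IDP2 1 each. The matches of IDP2 and ICL1 lay closest to the start cluster, 49 and 53 bases before it, and the farthest, in SFC1, lay 473 bases before it. Matches overlapped one another in FBP1 and MLS1. The longer published CSRE consensus, a search added after the values were seen, was met upstream of 4 genes (PCK1, ICL1, MLS1 and MDH2), against 0.479% of all genes. FBP1, IDP2 and SFC1 held the core alone. The 24 genes of the series that met the consensus include these 4. As the CSRE was already known upstream of many of the members, the counts are a description and not a test.

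The letters CCCCGC or CCCCAC, the short form of the site bound by the repressor Mig1, were found upstream of FBP1, PCK1 and IDP2, against 15.8% of all genes. CCAAT, the letters bound by the Hap complex that drives respiratory genes, stood in the 500 bases upstream of the main start cluster of 6 genes. It was not found in that window for ICL1, and 63.9% of all genes held it. In MLS1 1 of the CCAAT matches lay inside a CSRE core match. A TATA box in any of its 8 spellings (TATAAAAA, TATAAAAG, TATAAATA, TATAAATG, TATATAAA, TATATAAG, TATATATA and TATATATG) was found for FBP1, PCK1, MLS1, IDP2 and SFC1, against 46.0% of all genes. All motifs were searched on both strands. These counts depended on the window, which begins at the upstream edge of the main start cluster. In the 500 bases upstream of the coding start, CCAAT was found for all 7 genes, against 63.1% of all genes. A TATA box was found there for all 7 as well, against 52.4%, and the Mig1 letters for FBP1 and IDP2 only, against 13.4%. A match is a description of the letters in the window and not a shown binding site.

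**Figure D1:**
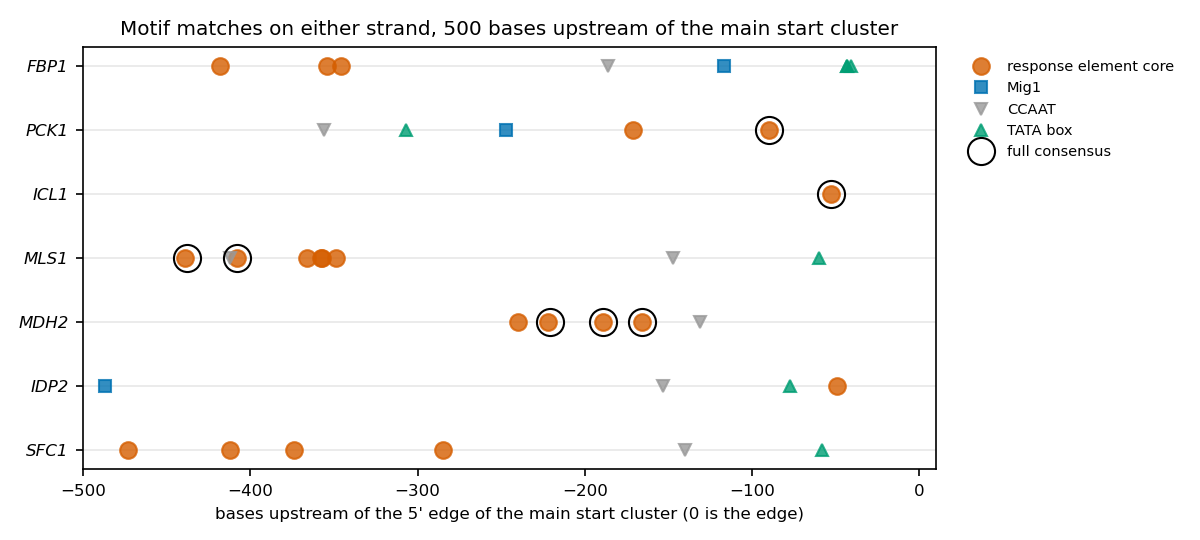
Positions of motif matches on either strand in the 500 bases upstream of each main start cluster, with the horizontal axis in bases from the upstream edge of the cluster (0) and 1 row for each gene. Circles are CSRE core matches, with a ring where the full consensus was met, squares are Mig1 letters, downward triangles CCAAT and upward triangles TATA boxes. Each of the 7 genes has at least 1 circle, and 4 of them have a ring.

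All 7 genes were higher in DEH than in glucose, in both strains. Their summed level was 7844 CPM in DEH against 619.2 CPM in glucose in BY_DEH+. In BY_DEH++ it was 6895 CPM in DEH and 1052 CPM in mannitol, against 490.4 CPM in glucose. The glucose sums include a cluster after the coding sequence of SFC1, with 116.36 CPM in BY_DEH+ and 94.69 CPM in BY_DEH++. At main start clusters alone the sums in BY_DEH+ were 7699 CPM in DEH and 449.1 CPM in glucose. Those in BY_DEH++ were 6763 CPM in DEH, 987.4 CPM in mannitol and 344.3 CPM in glucose. All 7 passed 4-fold higher in DEH in BY_DEH+, where 2.28% of the 4904 genes were called higher and 3.47% lower. All 7 also passed 4-fold higher in DEH in BY_DEH++, where 3.22% of genes were called higher and 2.28% lower. Only 1.10% of genes, 54 in number, were called higher in DEH in both strains. The median log2 ratio of the members was 4.76 in BY_DEH+ (range 2.05 to 6.82) beside 0.12 for all genes, and 4.24 in BY_DEH++ (range 2.29 to 6.31) beside -0.11 for all genes.

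**Figure D2:**
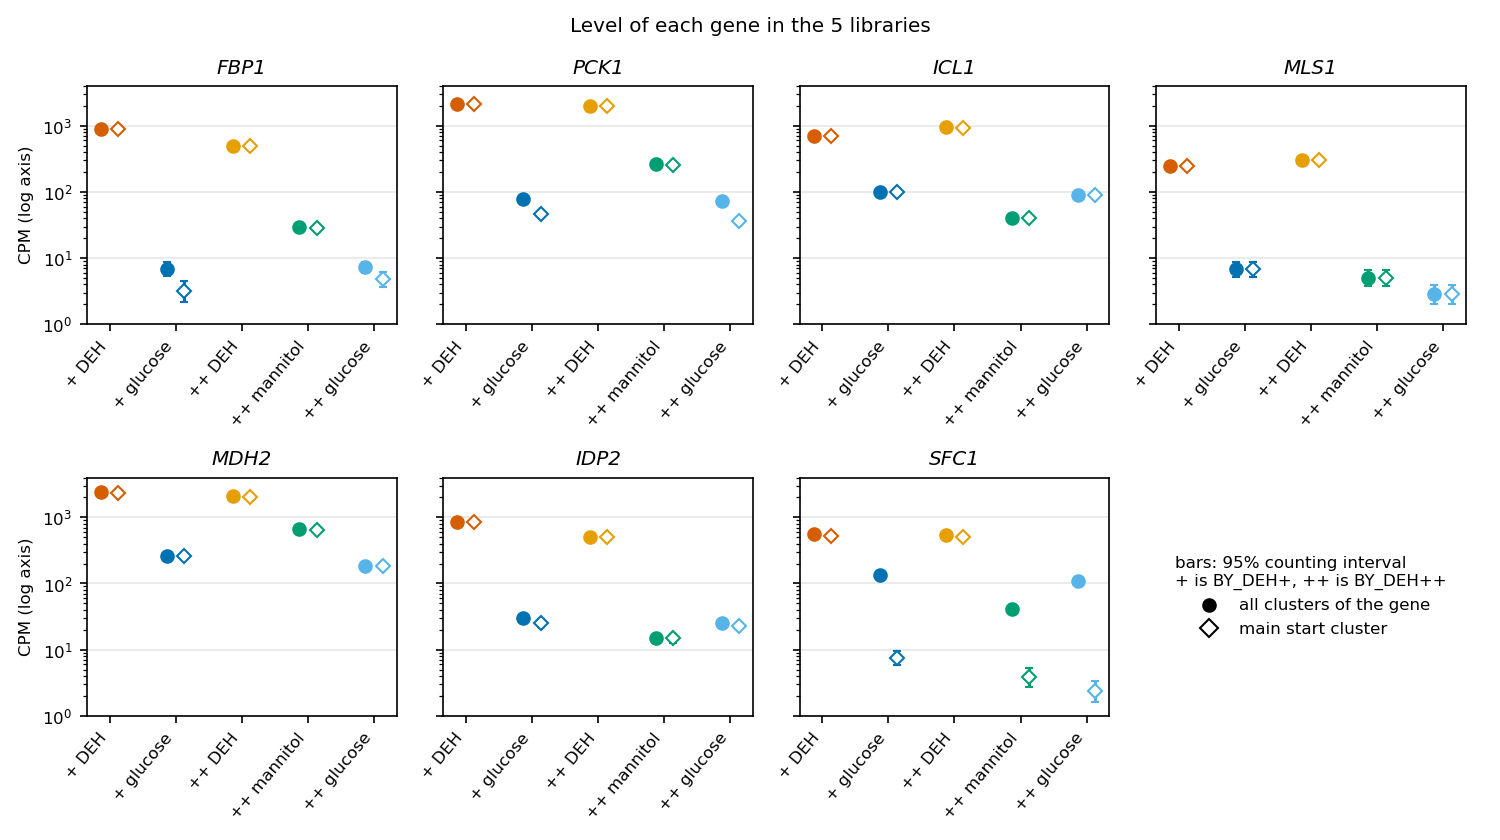
Level of each gene in CPM (log axis) in the 5 libraries, as the sum of all its clusters (filled circles) and at its main start cluster alone (open diamonds), with 95% counting intervals where they exceed the symbols. The DEH libraries are the highest for every gene; FBP1, PCK1 and SFC1 have a main start cluster well below the gene sum in glucose.

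FBP1 encodes fructose bisphosphatase, which makes fructose phosphate near the end of gluconeogenesis. It lies on the minus strand of chromosome XII (coding sequence 873746 to 874792, YLR377C), and its main start cluster spans 122 bases, from 76 bases before the coding start to 45 bases into it. In BY_DEH+ it had 893 CPM (876 to 912) in DEH against 6.90 CPM (5.32 to 8.79) in glucose. In BY_DEH++ it had 502 CPM (492 to 512) in DEH and 29.4 CPM (26.2 to 32.9) in mannitol, against 7.24 CPM (5.86 to 8.83) in glucose. FBP1 thus had the widest ratio of the 7 in BY_DEH+, 130 times the glucose level (102 to 168), and 69.4 times (56.8 to 85.7) in BY_DEH++. At the main start cluster alone, DEH libraries had 881 and 493 CPM in BY_DEH+ and BY_DEH++, against 3.18 and 4.75 CPM in glucose. That cluster rested on 30 reads in the glucose library of BY_DEH+. Of the 9 clusters of FBP1, 4 inside its coding sequence were also assigned to PSY3.

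PCK1 encodes phosphoenolpyruvate carboxykinase, the enzyme that turns oxaloacetate into phosphoenolpyruvate and so opens gluconeogenesis. Its coding sequence runs from 631152 to 632801 on the plus strand of chromosome XI (YKR097W), and its main start cluster was broad, 318 bases, ending 64 bases before the coding start. PCK1 had 2143 CPM (2116 to 2171) in DEH against 77.2 CPM (71.7 to 83.0) in glucose in BY_DEH+. BY_DEH++ cells had 1989 CPM (1969 to 2009) in DEH and 264 CPM (254 to 274) in mannitol, against 71.95 CPM (67.5 to 76.7) in glucose. The DEH ratio was nearly the same in both strains, 27.8 times (25.8 to 29.9) in BY_DEH+ and 27.6 times (25.9 to 29.5) in BY_DEH++. At the main start cluster alone it was larger, 45.7 times (41.6 to 50.4) and 54.3 times (49.7 to 59.6), because the glucose libraries placed only 60.3% (56.6 to 63.9) and 50.6% (47.4 to 53.8) of PCK1 reads there.

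ICL1 encodes isocitrate lyase, which splits isocitrate into succinate and glyoxylate and is the first enzyme particular to the glyoxylate cycle. It is on the minus strand of chromosome V (285241 to 286914, YER065C), with a main start cluster of 402 bases, the broadest of the 7. ICL1 had 709 CPM (693 to 725) in DEH against 100 CPM (94.2 to 107) in glucose in BY_DEH+. BY_DEH++ cells had 943 CPM (930 to 957) in DEH and 40.6 CPM (36.9 to 44.7) in mannitol, against 91.0 CPM (85.9 to 96.3) in glucose. ICL1 was the second highest member at its main start cluster in both glucose libraries, and its DEH ratios were modest beside the others, 7.06 times (6.60 to 7.56) in BY_DEH+ and 10.4 times (9.78 to 11.0) in BY_DEH++.

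MLS1 encodes malate synthase, which joins glyoxylate to acetyl-CoA. It lies on the plus strand of chromosome XIV (406358 to 408022, YNL117W) and began in the sharpest main start cluster of the 7, 51 bases. MLS1 had 248 CPM (239 to 258) in DEH against 6.79 CPM (5.23 to 8.67) in glucose in BY_DEH+. The BY_DEH++ libraries had 304 CPM (297 to 312) in DEH and 5.07 CPM (3.80 to 6.63) in mannitol, against 2.86 CPM (2.03 to 3.93) in glucose. MLS1 was the lowest member in both DEH libraries and still had one of the widest ratios, 36.6 times (28.6 to 47.7) in BY_DEH+ and 106 times (77.3 to 150) in BY_DEH++. The glucose values rested on 64 reads in BY_DEH+ and 38 reads in BY_DEH++.

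MDH2 encodes the cytosolic malate dehydrogenase, which returns malate of the glyoxylate cycle to oxaloacetate for Pck1. It is on the minus strand of chromosome XV (81787 to 82920, YOL126C), with a main start cluster of 222 bases. MDH2 had 2450 CPM (2421 to 2480) in DEH against 263 CPM (253 to 274) in glucose in BY_DEH+. The level in BY_DEH++ was 2124 CPM (2103 to 2144) in DEH and 657 CPM (642 to 673) in mannitol, against 184 CPM (177 to 192) in glucose. MDH2 was the highest of the 7 in all 5 libraries, and the DEH level was 9.31 times (8.93 to 9.70) the glucose level in BY_DEH+ and 11.5 times (11.1 to 12.0) in BY_DEH++.

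IDP2 encodes the cytosolic isocitrate dehydrogenase that reduces NADP and draws on the same isocitrate as Icl1. It lies on the plus strand of chromosome XII (504591 to 505829, YLR174W). IDP2 had 840 CPM (823 to 858) in DEH against 30.1 CPM (26.7 to 33.8) in glucose in BY_DEH+. The values in BY_DEH++ were 502 CPM (492 to 512) in DEH and 15.01 CPM (12.8 to 17.5) in mannitol, against 25.5 CPM (22.9 to 28.4) in glucose. The DEH level was 27.9 times (24.8 to 31.5) the glucose level in BY_DEH+ and 19.7 times (17.6 to 22.0) in BY_DEH++.

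SFC1 encodes the mitochondrial carrier that exchanges the succinate made by Icl1 for fumarate. It lies on the plus strand of chromosome X (609773 to 610741, YJR095W). SFC1 had 559 CPM (545 to 574) in DEH against 134 CPM (127 to 142) in glucose in BY_DEH+. Levels in BY_DEH++ were 532 CPM (521 to 542) in DEH and 40.4 CPM (36.7 to 44.5) in mannitol, against 108 CPM (102 to 113) in glucose. On these sums SFC1 had the smallest DEH ratios of the 7, 4.16 times (3.92 to 4.42) in BY_DEH+ and 4.94 times (4.67 to 5.23) in BY_DEH++. Its log2 ratio in BY_DEH+, 2.05, fell under the 4-fold limit at 1.98 with a pseudocount of 10 CPM and at 1.96 with either median-of-ratios or upper-quartile scaling.

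The SFC1 sums joined starts that moved in opposite directions. The main start cluster, 100 bases long and ending 97 bases before the coding start, had 524 CPM (510 to 538) in DEH against 7.43 CPM (5.79 to 9.38) in glucose in BY_DEH+. The same cluster in BY_DEH++ had 499 CPM (490 to 509) in DEH and 3.82 CPM (2.73 to 5.21) in mannitol, against 2.34 CPM (1.59 to 3.31) in glucose. There the DEH level was 70.6 times (55.8 to 90.6) the glucose level in BY_DEH+ and 214 times (151 to 315) in BY_DEH++. A second cluster assigned to SFC1 lay after its coding sequence, 1254 to 1478 bases from the coding start (chrX:611027-611251), across the start of the coding sequence of YJR096W at 611195, a gene with no cluster under its own name in the table. That cluster had 31.76 CPM in DEH against 116.36 CPM in glucose in BY_DEH+. In BY_DEH++ it had 29.57 CPM in DEH and 36.61 CPM in mannitol, against 94.69 CPM in glucose. It was thus highest in the glucose libraries, where the main start cluster held 5.52% (4.33 to 6.93) of SFC1 reads in BY_DEH+ and 2.17% (1.48 to 3.07) in BY_DEH++.

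Main start clusters taken alone gave larger ratios for FBP1, PCK1, IDP2 and SFC1 than the gene sums and left the other 3 genes nearly as they were. All 7 were again past 4-fold in both strains, where 3.12% of 4878 main start clusters were higher in BY_DEH+ and 4.12% in BY_DEH++. The log2 ratios of the members lay between 2.83 and 7.72 in BY_DEH+ and between 3.35 and 7.23 in BY_DEH++, beside medians of 0.13 and -0.09 for all genes. In the DEH libraries the main start cluster held 93.7% to 100% of each gene's reads. In the glucose libraries the shares ran from 2.17% for SFC1 to 100% for MLS1, and for ICL1 and MDH2 they were 98.1% or more. FBP1 had 46.2% (33.7 to 59.0) of its glucose reads at the main start cluster in BY_DEH+ and 65.6% (55.2 to 75.0) in BY_DEH++.

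**Figure D3:**
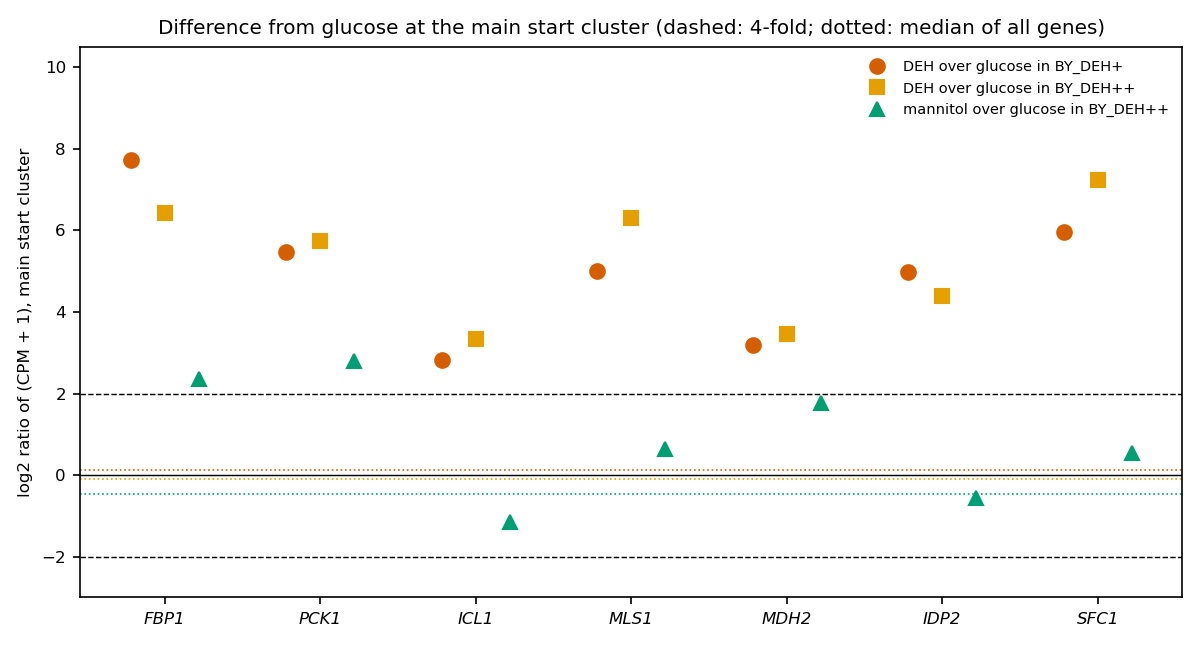
Log2 ratio of (CPM + 1) at the main start cluster of each gene for DEH over glucose in BY_DEH+ (circles) and BY_DEH++ (squares) and for mannitol over glucose in BY_DEH++ (triangles); dashed lines mark 4-fold and dotted lines the median of all genes in each comparison. Every circle and square lies above the upper 4-fold line, and among the triangles those of FBP1 and PCK1 do.

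Mannitol gave another picture within the same genes. None of the 7 sums passed 4-fold in either direction against glucose, a comparison in which 4.22% of genes were called higher and 6.28% lower. FBP1, PCK1 and MDH2 had more CPM in mannitol than in glucose, with ratios of 4.07 (3.23 to 5.17), 3.66 (3.40 to 3.95) and 3.57 (3.41 to 3.74). ICL1, IDP2 and SFC1 had less, with ratios of 0.446 (0.399 to 0.499), 0.588 (0.483 to 0.712) and 0.376 (0.336 to 0.419). MLS1 had a ratio of 1.77 (1.15 to 2.76). MDH2, PCK1 and FBP1, the members that act between malate and hexose, thus had mannitol values above glucose. MLS1 did too, while the lyase ICL1 did not. The 10 glycolytic genes whose enzymes also serve gluconeogenesis were below glucose in mannitol. Their log2 ratios ran from -3.70 (TDH1) to -0.35 (FBA1), with a median of -0.68 beside -0.46 for all genes. The ratio of FBP1 lay near the limit: its log2 ratio was 1.89 with the pseudocount of 1 CPM.

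How many members were called in mannitol depended on the count and the scale. At main start clusters FBP1 and PCK1 passed 4-fold, with ratios of 5.96 (4.53 to 7.96) and 7.07 (6.41 to 7.80), in a comparison where 4.96% of main start clusters were higher. SFC1 had a ratio of 1.64 there (0.999 to 2.71), so that its lower sum in mannitol came with the cluster after its coding sequence. The mannitol library had a median log2 ratio of -0.46 over all genes against glucose. Median-of-ratios scaling moved that median by 0.42, turned the split of calls over all genes from 207 higher and 308 lower to 285 higher and 170 lower (263 and 207 with upper-quartile scaling), and put FBP1, PCK1 and MDH2 past 4-fold at 2.30, 2.29 and 2.26. ICL1 stayed below its glucose level on each scale, with log2 ratios of -1.14, -0.72 and -0.89 for CPM, median-of-ratios and upper-quartile scaling.

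In BY_DEH++, 6 of the 7 genes were called higher in DEH than in mannitol, where 4.20% of genes were higher and 2.32% lower. This comparison shares its DEH and mannitol libraries with the ones above. MLS1 had the widest ratio, 60.0 times (45.8 to 80.3), followed by IDP2 with 33.4 (28.6 to 39.4), ICL1 with 23.2 (21.1 to 25.6), FBP1 with 17.0 (15.2 to 19.1) and SFC1 with 13.1 (11.9 to 14.5). PCK1 had 7.54 times (7.26 to 7.84) its mannitol level. MDH2, at 3.23 times (3.15 to 3.31), was the member not called. At its main start cluster SFC1 had 131 times (95.8 to 183) the mannitol level. Median-of-ratios scaling moved the median of all genes by -0.32 in this comparison and turned the split of calls over all genes from 206 higher and 114 lower to 146 higher and 170 lower (155 and 148 with upper-quartile scaling).

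Between the strains no member was called, in comparisons where few genes of the series were, so the lack of calls is not particular to them. The DEH cultures also differed in time and starting density, 3 days from 0.2 in BY_DEH+ and 2 days from 0.05 in BY_DEH++. An effect of strain on the DEH values therefore cannot be told apart from one of culture stage. Grown in DEH, none of the 7 was called different between BY_DEH++ and BY_DEH+, where 1.18% of genes were higher and 1.59% lower. FBP1 and IDP2 had lower values in BY_DEH++, at 0.562 (0.546 to 0.578) and 0.597 (0.580 to 0.615) of the BY_DEH+ level, and ICL1 and MLS1 had higher ones, at 1.33 times (1.30 to 1.37) and 1.22 times (1.17 to 1.28). MDH2, PCK1 and SFC1 lay between 0.867 and 0.951 times, and their log2 ratios turned positive with median-of-ratios scaling. Median-of-ratios scaling moved the median of all genes by 0.22 here and turned the split of calls from 58 higher and 78 lower to 78 higher and 52 lower. In glucose none was called either, where 0.122% of genes were higher and 0.245% lower; MLS1 had the widest ratio of the gene sums, 0.422 (0.275 to 0.640), on 38 reads in BY_DEH++ and 64 in BY_DEH+. FBP1 stood at 1.05 times (0.758 to 1.46), which counting error alone covers. The main start cluster of SFC1 had a wider ratio than these sums, 0.315 (0.199 to 0.487). It was not called either and rested on 31 reads in BY_DEH++ and 70 in BY_DEH+.

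The order of the members was similar in the DEH libraries. At main start clusters MDH2 and PCK1 led in both and MLS1 came last; FBP1 followed PCK1 in BY_DEH+ and came just before MLS1 in BY_DEH++, where the intervals of IDP2 (490 to 510), SFC1 (490 to 509) and FBP1 (483 to 503) overlapped. In mannitol the order was MDH2, PCK1, ICL1, FBP1, IDP2, MLS1 and SFC1, with MLS1 and SFC1 overlapping in their intervals. In both glucose libraries MDH2, ICL1, PCK1 and IDP2 led in that order, and FBP1, MLS1 and SFC1 were all below 10 CPM.

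Starts away from the promoter also differed between media. The question was taken up after the cluster values were seen, so the counts describe and do not test. Of the 62 clusters of the members, 30 lay upstream or within 100 bases of the coding start, 29 inside the coding sequences of 6 genes and 3 after that of SFC1. A cluster inside PCK1, 790 to 1023 bases from the coding start, had 2.24 CPM in DEH against 28.96 CPM in glucose in BY_DEH+; in BY_DEH++ it had 1.86 CPM in DEH and was listed at 0 in mannitol, against 32.92 CPM in glucose. A cluster on the other strand lay over nearly the same place, was listed at 0 in both DEH libraries and in mannitol, and had 12.52 CPM in glucose in BY_DEH+ and 11.22 CPM in BY_DEH++. Both PCK1 clusters were therefore highest in glucose, where its promoter start was low.

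Clusters on the other strand near the end of the coding sequences of FBP1, MLS1 and ICL1, given to no gene, showed the same direction. That of FBP1 had 1.68 CPM in DEH against 19.2 CPM in glucose in BY_DEH+, and 2.46 CPM in DEH, 0 in mannitol and 18.08 CPM in glucose in BY_DEH++. That of MLS1 was listed at 0 in DEH against 14.43 CPM in glucose in BY_DEH+, and had 0.7 CPM in DEH, 1.72 CPM in mannitol and 12.2 CPM in glucose in BY_DEH++. That of ICL1 had 28.21 CPM in DEH against 59.4 CPM in glucose in BY_DEH+, and 17.65 CPM in DEH, 13.38 CPM in mannitol and 57.78 CPM in glucose in BY_DEH++. Such other-strand starts were summed over each coding sequence and compared as a ratio of (CPM + 1). They were at least 2-fold lower in DEH in both strains for FBP1, PCK1, ICL1, MLS1 and SFC1. That was 5 of the 7 genes, against 4.07% of 4869 genes. It was 27.6% of the 76 genes, members included, whose main start cluster was 4-fold higher in DEH in both strains. SFC1 counted on values near the floor, 2.34 CPM in glucose in BY_DEH+ and 1.13 CPM in BY_DEH++, against a listed 0 in DEH. Starts inside the coding sequence on the same strand were lower by this measure for PCK1, IDP2 and SFC1. That was 3 of 7, against 4.05% of all genes and 15.8% of the 76. For either kind it held for 6 of 7, against 7.50% of all genes and 38.2% of the 76. In all these counts and shares a gene without starts of the kind was taken as not lower. They are thus not shares among the genes that have such starts, which were not counted. Starts inside the coding sequence of FBP1 and MDH2 were higher in DEH in both strains. Those inside ICL1 were higher in DEH in BY_DEH++ and near level in BY_DEH+. Summed inside FBP1 they had 6.07 CPM in DEH against 1.17 CPM in glucose in BY_DEH+, and 4.84 against 0.98 CPM in BY_DEH++. Inside ICL1 they had 2.80 CPM in DEH against 1.91 CPM in glucose in BY_DEH+, and 7.24 CPM in DEH against a listed 0 in glucose in BY_DEH++. The ICL1 values in BY_DEH+ came from small clusters of 12 and 18 reads in DEH and another of 18 reads in glucose. For MDH2, a cluster at the end of the coding sequence had 51.0 CPM in DEH against 2.12 CPM in glucose in BY_DEH+, and in BY_DEH++ 40.43 CPM in DEH and 16.35 CPM in mannitol and a listed 0 in glucose, the same order as its promoter start.

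**Figure D4:**
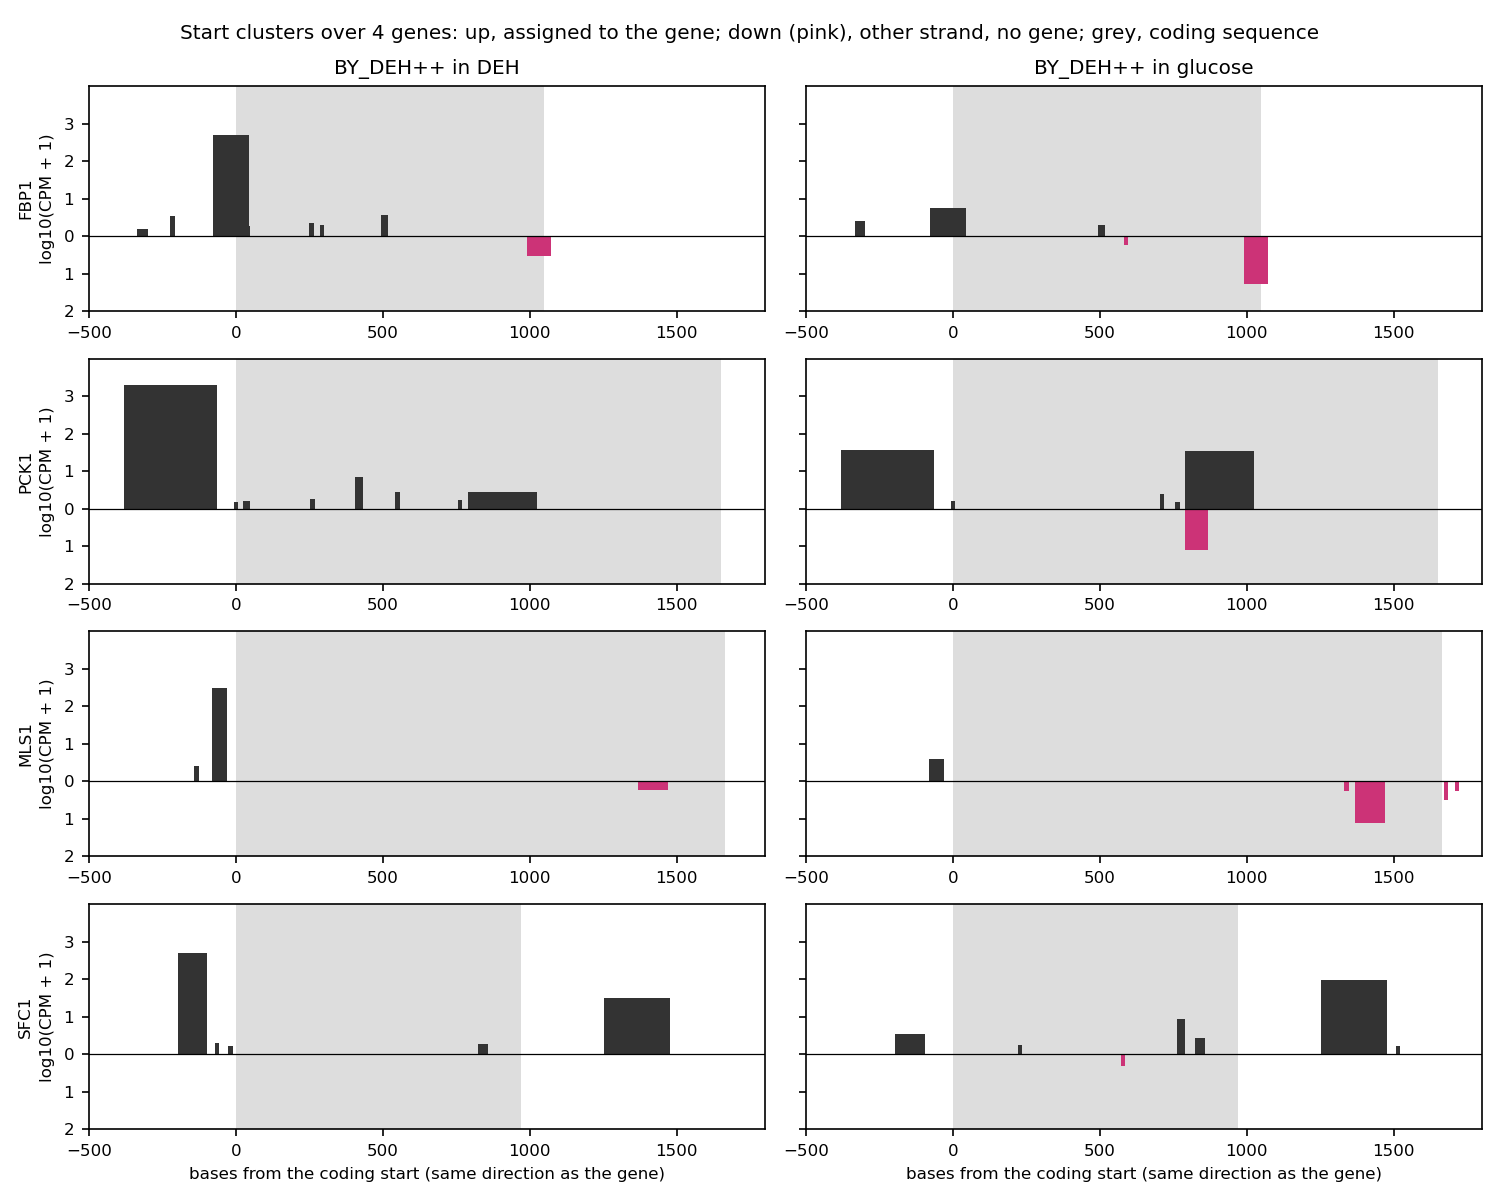
Start clusters over FBP1, PCK1, MLS1 and SFC1 in BY_DEH++ grown in DEH (left) and in glucose (right), with the horizontal axis in bases from the coding start in the direction of the gene and the vertical axis as log10(CPM + 1). Dark bars point up and are clusters assigned to the gene, pink bars point down and are clusters on the other strand assigned to no gene, and grey marks the coding sequence. In DEH the promoter cluster stands out for each gene; in glucose it is low, and clusters within PCK1, after SFC1 and on the other strand of FBP1, PCK1 and MLS1 are higher than in DEH.

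Relatives of the members did not move as a group. The lists that follow come from general knowledge of yeast and were chosen with earlier results of these data known. Over all genes, 2.28% were called higher and 3.47% lower in DEH in BY_DEH+ (median log2 ratio 0.12). In BY_DEH++ the shares were 3.22% and 2.28% in DEH (median -0.11), and 4.22% and 6.28% in mannitol (median -0.46). A short list with none called is near those shares and is no result about that list. Of 6 paralogues, 2 were called higher and 1 lower in DEH in BY_DEH+ (median log2 ratio 0.60), and 1 higher and 0 lower in BY_DEH++ (median 0.43). ICL2, the relative of ICL1 that acts in the breakdown of propionyl-CoA, had 313 CPM in DEH against 0.85 CPM in glucose in BY_DEH+, and 230 CPM in DEH, 4.68 CPM in mannitol and 1.73 CPM in glucose in BY_DEH++. IDP1, the mitochondrial counterpart of IDP2, went the other way, with 393 CPM in DEH against 1993 CPM in glucose in BY_DEH+, and 637 CPM in DEH, 271 CPM in mannitol and 1775 CPM in glucose in BY_DEH++. The peroxisomal IDP3 had 87.6 CPM in DEH against 12.6 CPM in glucose in BY_DEH+, and was not called in BY_DEH++, with 34.3 CPM in DEH against 13.5 CPM in glucose. MDH1 and MDH3, the mitochondrial and peroxisomal malate dehydrogenases, had log2 ratios between -0.14 and 1.01 in DEH, and DAL7, the malate synthase of allantoin breakdown, had -1.13 in BY_DEH+ and -0.38 in BY_DEH++.

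Partner enzymes of the members, among them CIT2 and ACO1 of the glyoxylate cycle itself, were mostly level in DEH on their gene sums. The log2 ratios in BY_DEH+ and BY_DEH++ were 0.57 and 0.31 for CIT2 and -0.30 and 0.47 for ACO1. Of CIT2, ACO1, PYC1 and PYC2 none was called in DEH in either strain on these sums. At its main start cluster alone PYC2 was past 4-fold lower in BY_DEH+, at -2.50 against -1.54 for its sum, and had -0.54 in BY_DEH++. CIT2, the peroxisomal citrate synthase, had 1335 CPM in DEH, 79.0 CPM in mannitol and 1080 CPM in glucose in BY_DEH++, and was the 1 of these genes called lower in mannitol. Among 11 regulators, SIP4 was the 1 called higher and MIG2 the 1 called lower in DEH on gene sums, in both strains. At its main start cluster alone REG2 also passed 4-fold higher in BY_DEH+, at 2.20 against 1.33 for its sum, and had 1.17 in BY_DEH++. SIP4, an activator that binds the CSRE, had 174 CPM in DEH against 6.89 CPM in glucose in BY_DEH+, and 75.1 CPM in DEH, 12.5 CPM in mannitol and 10.2 CPM in glucose in BY_DEH++. MIG2, a repressor related to Mig1, had 16.8 CPM in DEH against 129 CPM in glucose in BY_DEH+, and 2.87 CPM in DEH, 2.30 CPM in mannitol and 80.7 CPM in glucose in BY_DEH++. CAT8 itself had 37.9 CPM in DEH against 19.9 CPM in glucose in BY_DEH+, and 51.9 CPM in DEH, 18.6 CPM in mannitol and 36.2 CPM in glucose in BY_DEH++, and was not called. In mannitol MIG1 (log2 ratio -2.16) and MIG2 (-4.63) were called lower than in glucose.

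The Gid ubiquitin ligase marks Fbp1 and other gluconeogenic enzymes for breakdown once glucose returns. Of 12 genes listed for it, 9 had clusters under these names. None of the 9 was called in DEH in either strain, which is near the shares over all genes. The medians were 0.30 in BY_DEH+ and -0.55 in BY_DEH++, beside 0.12 and -0.11 for all genes. CUE4, whose place in the ligase was not checked, was the lowest of the 9 in both strains, at -1.29 and -1.56. In mannitol GID8 was called lower, at a log2 ratio of -2.13. The 10 glycolytic genes whose enzymes also serve gluconeogenesis had lower medians than all genes in DEH, -1.74 in BY_DEH+ and -1.11 in BY_DEH++. GPM1 (-2.10) and ENO2 (-2.80) were called lower in BY_DEH+ and TDH1 (-2.85) in BY_DEH++; none of the 10 was called higher. The 10 genes of the irreversible glycolytic steps that gluconeogenesis bypasses, and of their regulators, had medians of -0.59 and -0.69. In that list CDC19, the main pyruvate kinase, was called lower in BY_DEH+ at -2.16, and PFK27 in BY_DEH++ at -2.12.

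**Figure D5:**
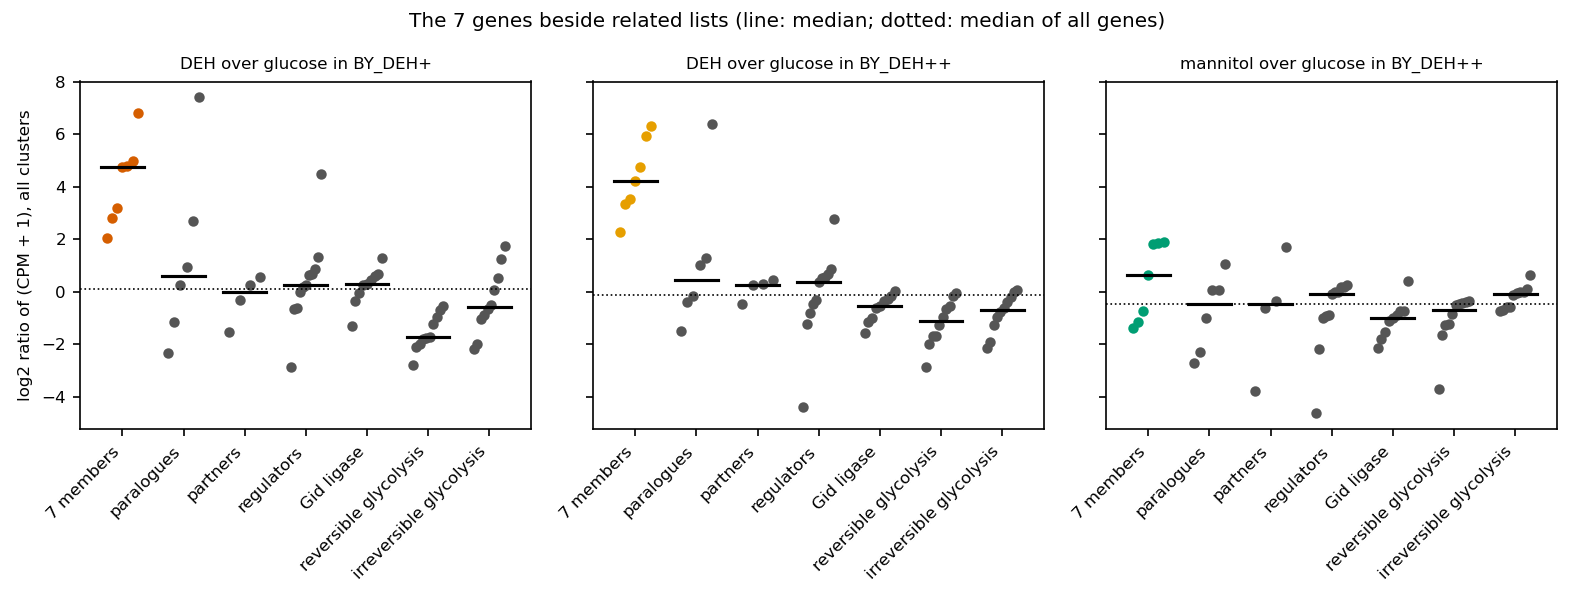
Log2 ratio of (CPM + 1), all clusters of a gene, for the 7 genes and 6 related lists in DEH over glucose in BY_DEH+ (left) and in BY_DEH++ (middle) and in mannitol over glucose in BY_DEH++ (right). Points are genes, bars are list medians and the dotted line is the median of all genes. The 7 genes lie above 2 in both DEH panels, where the shared glycolytic genes lie below 0.

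The other genes that passed the filter were ranked by how near their profile over the 5 libraries, as log2(CPM + 1) centred on its own mean, lay to the mean profile of the members. The nearest 8 were PUT4, ATO3, IMA5, ACS1, YIG1, CDA1, JEN1 and SIP4, at Euclidean distances of 0.67 to 1.25. The members themselves lay at 1.18 (IDP2) to 2.23 (FBP1) from their own mean. Of the nearest 8, the values of ACS1, an acetyl-CoA synthetase, JEN1, a carrier of lactate and pyruvate, and PUT4, a carrier of proline, serve as examples chosen after they were seen. ACS1 had 2132 CPM in DEH against 69.9 CPM in glucose in BY_DEH+, and 958 CPM in DEH, 131 CPM in mannitol and 91.7 CPM in glucose in BY_DEH++. JEN1 had 1783 CPM in DEH against 88.3 CPM in glucose in BY_DEH+, and 1524 CPM in DEH, 182 CPM in mannitol and 171 CPM in glucose in BY_DEH++. PUT4 had 78.7 CPM in DEH against 6.58 CPM in glucose in BY_DEH+, and 75.5 CPM in DEH, 5.83 CPM in mannitol and 4.07 CPM in glucose in BY_DEH++. Since the 8 were chosen for this profile, their high DEH values are a description of the choice.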

How the data were processed

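The data were 5 CAGE libraries of total RNA, 1 for each strain and medium. Per the labels' protocols, RNA was extracted with acid phenol and chloroform, capped 5′ ends were captured by biotinylation after reverse transcription, and libraries were read on an Illumina NextSeq 500. Per the submitters' processing notes, BWA and HISAT2 were used, and the notes name the build mm9, a mouse build; the clusters of the deposited table carry yeast chromosome names and were read here on R64, where 65.7% of 204 one-base clusters began on a purine after a pyrimidine once starts were shifted by 1 base, against 7.84% without the shift. How the authors clustered starts, filtered them and assigned genes is not given in the sources used here. The values the authors deposited are CPM of each cluster in each library. They were handled as a signal because the deposited table repeats a cluster for each gene it is assigned to, so that a column adds up to more than CPM can; the design had assumed plain CPM, and the test was not changed by this.

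Each cluster was counted once per gene and clusters were summed to genes. Within a library, values up to 20 CPM were whole multiples of 1 read within 0.15 reads in 100.0% of cases, which gave the depths and the 95% intervals (exact Poisson for a level, exact Clopper-Pearson for a share, exact binomial for a ratio). Reads of 1 library are not independent replicates. Differences were log2 ratios of (CPM + 1) over genes with 10 CPM in at least 1 library, called at 4-fold, in 6 comparisons, some of which share libraries. The members and the lists were chosen with earlier results of these data known. All 7 members are described; other genes are those of the lists, apart from 1 gene that is not reported here, the 8 nearest profiles and, chosen after the values were seen, 2 neighbours of members. Calculations used Python 3.11.15, pandas 2.3.3, NumPy 2.4.6 and SciPy 1.17.1, and were tested on simulated data. Alternatives were the 4-fold limit, the pseudocount, the filter, the scaling, the clusters counted and the motif window.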

Additional observations from a re-analysis of the deposited data

Results flagged for a closer look

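A start cluster assigned to no gene lay upstream of ICL1 on the other strand (chrV:287469-287521, 53 bases) and had signal in the DEH libraries only. It had 15.19 CPM (13.5 to 17.0, 302 reads) in DEH in BY_DEH++ and 10.0 CPM (8.19 to 12.1, 107 reads) in DEH in BY_DEH+. It was listed at 0 in mannitol and in both glucose libraries, where the lowest listed values stood for 5 to 7 reads. It drew attention because it belongs to no gene's sum and was above the glucose libraries in both strains; with 1 library in each group the difference was not tested.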

How the results depend on the processing

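The count of members called was 7 in DEH over glucose in each strain, 6 in DEH over mannitol and 0 between strains in DEH in the settings used above; these stayed within 1.5 times of that under every alternative run. In mannitol over glucose the count was 0, and became 5 (3 higher, 2 lower) at a 2-fold limit, 3 with median-of-ratios and 3 with upper-quartile scaling, 2 with clusters in a window around the coding start, 2 with main start clusters and 1 (FBP1) without clusters of several genes; more members pass a lower limit by construction, and for the rest the cause was not tested. Between strains in glucose the count was 0 and 1 (MLS1, lower) at 2-fold. The number of members with 90% or more of their reads at the main start cluster in every library was 3, against 5 with clusters of 10 CPM in some library and 6 in the window. The CSRE core was found for 7 members and the full consensus, added later, for 4; the core in 300 bases was found for 5. Of the members' log2 ratios under alternatives 399 stayed on their side of the limit, 18 newly passed it, and 3 (SFC1 in BY_DEH+) no longer did. Of the 399, 392 also kept their sign; the other 7 were not called and changed it. SFC1 in mannitol over glucose was 0.53 with the window and with main start clusters, against -1.39. Between strains in DEH, median-of-ratios scaling gave 0.12 for PCK1, 0.02 for MDH2 and 0.15 for SFC1, and upper-quartile scaling 0.02 for PCK1 and 0.05 for SFC1, against -0.11, -0.21 and -0.07. Over all genes the 2-fold limit called 517 higher and 489 lower in DEH in BY_DEH+, and a pseudocount of 10 CPM 84 and 106, against 112 and 170. In BY_DEH++ the 2-fold limit called 426 and 528, and the pseudocount of 10 CPM 144 and 57, against 158 and 112. For mannitol over glucose these 2 settings called 485 and 1325, and 181 and 171, and median-of-ratios scaling 285 and 170, against 207 and 308. For DEH over mannitol they called 1014 and 445, and 129 and 74, against 206 and 114. Between strains they called 256 and 418, and 37 and 40, against 58 and 78 in DEH, and 33 and 55, and 5 and 5, against 6 and 12 in glucose, where the window around the coding start gave 11 and 17. No paired analysis was possible because each group had 1 library and so the groups shared no replicate numbers; a fit that takes the strains as a block, with DEH and glucose in each, was not run. Depth limits FBP1, MLS1 and SFC1 in glucose, which rested on 30 to 70 reads at their main start clusters.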

Other observations

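Neighbours that share an upstream region with a member were looked at beside it. TRM13, a tRNA methyltransferase gene read away from MDH2 on the other strand (chrXV:83834-85264), was 6.09 times (5.30 to 7.02) as high in DEH as in glucose in BY_DEH+, with 149 CPM in DEH against 24.5 CPM in glucose. In BY_DEH++ it had 95.8 CPM in DEH and 58.9 CPM in mannitol, against 19.7 CPM in glucose, ratios of 4.87 (4.28 to 5.57) and 2.99 (2.59 to 3.47). The order of the media was thus that of MDH2. DCP2, an mRNA decapping gene read away from MLS1, had 85.5 CPM in DEH against 87.7 CPM in glucose in BY_DEH+, and 78.8 CPM in DEH and 35.4 CPM in mannitol, against 89.1 CPM in glucose, in BY_DEH++. It did not have the high DEH value of MLS1, whose ratio in BY_DEH++ was 106, against 0.884 (0.819 to 0.954) for DCP2. Whether the pairs share regulation was not tested.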
